A study of Rattus norvegicus with 10 samples.

Results

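A set of 8 genes that marks the acid-base and ammonia work of the renal intercalated cell was followed: Rhcg, Rhbg, Atp6v1b1, Atp6v0a4, Slc4a1, Slc26a4, Foxi1 and Oxgr1. They were taken by gene symbol from the probe annotation, 8 of 8 were found, and each had a single probe set among the 29214 of the table, so no choice between probe sets was needed. The samples were whole kidneys of male weanling Wistar rats, fed their diet for 6 days, with RNA of 3 animals pooled per array and 2 arrays per group. The 5 groups were kidneys labelled necrotic from rats on a choline-deficient corn oil diet (necrotic), kidneys from that diet without this word (deficient corn oil), choline-supplemented corn oil kidneys (control corn oil), choline-deficient fish oil kidneys (deficient fish oil) and choline-supplemented fish oil kidneys (control fish oil). The protocol describes the vegetable fat as corn and hydrogenated oils and the fish oil as menhaden oil, names 4 diets, and does not say how the necrotic pools were chosen among rats of the deficient corn oil diet. All values are log2 RMA intensities (robust multi-array average, a background-corrected, normalized summary per probe set), so a difference of 1 is a 2-fold change in signal.

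Intercalated cells are the minority cell of the connecting tubule and collecting duct that adjusts the acid and bicarbonate content of urine. Type A cells push protons into the lumen with a vacuolar proton pump and return bicarbonate to blood through a chloride-bicarbonate exchanger on the basolateral side, while type B cells secrete bicarbonate through another exchanger on the apical side. Most acid leaves the body as ammonium, which the proximal tubule makes from glutamine and which ammonia channels of the Rh family carry across the collecting duct. The cell's identity rests on the forkhead transcription factor Foxi1, without which mice lack intercalated cells.

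Array medians lay between 7.28 and 7.43, and with 2 arrays a group the number of arrays sets the precision. Differences were tested with limma over all 5 groups and all 29214 probe sets. Errors are moderated standard errors, "passed" means a Benjamini-Hochberg adjusted p under 0.05, and rose, fell, higher and lower are used of tested differences in that sense. Deficient corn oil replicate 2 stood closer to the necrotic kidneys than replicate 1 did, with correlations of 0.984 and 0.980 against 0.974 and 0.973 across all probe sets, which are not independent replicates. The mean log2 value of 9 tubular injury genes was 12.07 and 12.20 in the necrotic kidneys, 11.10 and 11.63 in the deficient corn oil kidneys, and 9.56 and 9.57 in the control corn oil kidneys. Between these arrays the members went both ways: replicate 2 was higher than replicate 1 for Oxgr1 (10.38 and 9.74) and Foxi1 (10.74 and 10.53) and lower for the other 6. In whole kidney RNA, fewer cells of a type and less RNA per cell cannot be told apart, and that holds for every result here.

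Of the 8 genes 7 fell in the necrotic kidneys relative to the control corn oil kidneys, against a background of 10.7% of all probe sets that were lower there. The median of the 8 log2 differences was -1.79, beside 0.06 over all probe sets. All 8 had lower values on both necrotic arrays than on either control corn oil array, which was true of 26.7% of all probe sets. The other one, Slc4a1, missed the threshold with adjusted p = 0.0522. Over all probe sets 2985 were higher and 3113 lower, and after centring each array on its median 2123 were higher and 3739 lower, since that scaling moved the median difference by -0.11. Under it the members' median was -1.90 and all 8 passed.

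**Figure D1:**
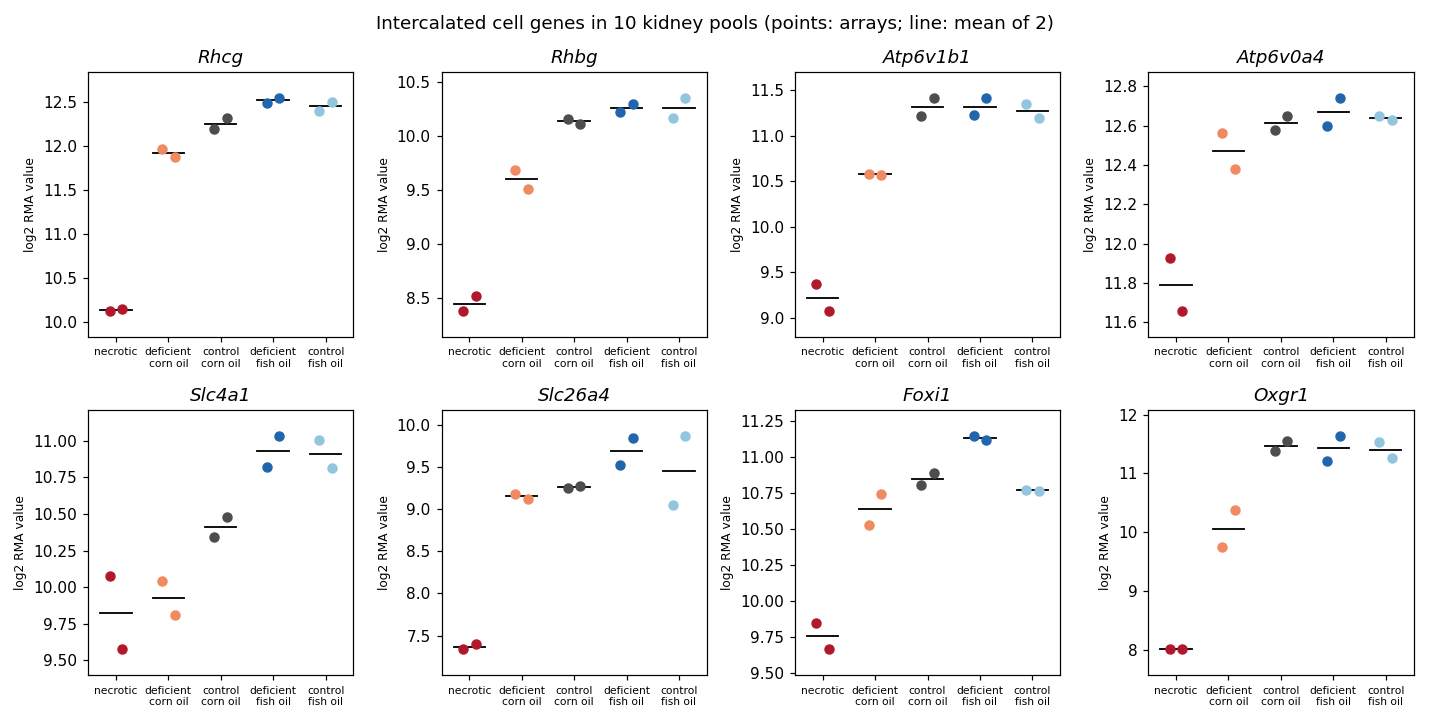
Log2 RMA value (y axis) of each of the 8 genes on every array, with the 5 groups along the x axis; points are arrays (pools of 3 rats) and lines are means of the 2 arrays. In every panel but that of Slc4a1 the necrotic points lie below all others, and Oxgr1 spans the widest range, 8.01 to 11.64.

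Foxi1, the regulator of the cell type, read 9.84 and 9.66 in the necrotic kidneys, 10.53 and 10.74 in the deficient corn oil kidneys, and 10.81 and 10.89 in the control corn oil kidneys. Under fish oil it read 11.15 and 11.12 in the deficient kidneys and 10.77 and 10.77 in the control kidneys. The necrotic arrays were the lowest of the 10 and the deficient fish oil arrays the highest, and no deficient fish oil value overlapped with another group. Foxi1 fell by 1.09 ± 0.12 on the log2 scale in the necrotic relative to the control corn oil kidneys (2.13-fold, adjusted p = 0.000487). The neighbouring deficient corn oil and control corn oil groups differed by -0.21 ± 0.12 (adjusted p = 0.435), while the control fish oil values lay below those of control corn oil by a small margin (-0.08 ± 0.12, adjusted p = 0.813).

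Foxi1 is a forkhead factor, and its part in the values of the other members was not tested. As a description, the promoters of the members were searched for the forkhead motif TGTTTAC and its shorter core TGTTT. Both strands were searched, and the second motif is contained in the first. Promoter windows (250 bases before to 50 after the start, RefSeq, build GRCr8) were on hand for 6 of the 8 members, the exceptions being Slc4a1 and Oxgr1. TGTTTAC was found in 1 of the 6, Atp6v1b1, at a position 93 bases before the start on the gene's strand, and it is held by 3.78% of all 33469 windows. TGTTT was found in 2 of the 6, Atp6v1b1 and Rhbg, and 51.9% of all windows hold it. In Rhbg it lies on the opposite strand, reading AAACA, 134 bases before the start. These are matches of letters and not binding sites, and no match says only that the letters are not in this window. Both windows with a match are shown 5′ to 3′ on the gene's strand, together with that of Rhcg, the second ammonia channel, which has neither motif, and capitals mark the motif. The windows are chr4:117781194-117781493 on the plus strand for Atp6v1b1, chr2:176015100-176015399 on the minus strand for Rhbg and chr1:142965113-142965412 on the minus strand for Rhcg.
Atp6v1b1: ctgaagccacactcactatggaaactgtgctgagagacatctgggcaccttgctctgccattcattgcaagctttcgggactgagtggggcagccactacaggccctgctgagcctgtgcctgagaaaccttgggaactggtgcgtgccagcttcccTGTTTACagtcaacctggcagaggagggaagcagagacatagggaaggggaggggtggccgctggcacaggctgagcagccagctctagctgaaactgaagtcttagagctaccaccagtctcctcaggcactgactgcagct
Rhbg: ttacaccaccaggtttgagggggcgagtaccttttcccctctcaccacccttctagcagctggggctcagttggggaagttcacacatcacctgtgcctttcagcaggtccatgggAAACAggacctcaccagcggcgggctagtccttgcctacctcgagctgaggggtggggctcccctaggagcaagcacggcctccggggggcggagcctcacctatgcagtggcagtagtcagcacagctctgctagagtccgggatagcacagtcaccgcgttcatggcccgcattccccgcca
Rhcg: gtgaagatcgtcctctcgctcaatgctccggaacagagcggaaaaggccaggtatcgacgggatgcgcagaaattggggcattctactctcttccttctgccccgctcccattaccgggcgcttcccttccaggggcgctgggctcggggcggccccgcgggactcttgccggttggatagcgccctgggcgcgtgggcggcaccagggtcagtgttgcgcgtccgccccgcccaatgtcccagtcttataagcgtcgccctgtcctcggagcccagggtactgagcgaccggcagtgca

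Atp6v1b1 encodes the B1 subunit in the cytoplasmic domain of the proton pump, and loss of this gene in people causes distal renal tubular acidosis with deafness. It read 9.37 and 9.07 in the necrotic kidneys, 10.58 and 10.57 in the deficient corn oil kidneys and 11.21 and 11.42 in the control corn oil kidneys. Under fish oil it read 11.23 and 11.41 in the deficient kidneys and 11.35 and 11.20 in the control kidneys. The 6 control and fish oil arrays overlapped, the deficient corn oil arrays lay below all of them, and the necrotic arrays lay lower still. The fall in the necrotic relative to the control corn oil kidneys was 2.10 ± 0.14 in size (log2 difference -2.10, 4.28-fold, adjusted p = 6.24e-05). In the deficient corn oil kidneys the difference from control corn oil was -0.74 ± 0.14 and missed the threshold (adjusted p = 0.0543), although it passed after median centring (adjusted p = 0.041), without the dimmest 25% of probe sets (adjusted p = 0.0359) and with a trended, robust variance prior (adjusted p = 0.024) (range over 10 alternatives 0.024 to 0.358).

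Atp6v0a4 encodes the a4 subunit in the membrane domain of the same pump. It read 11.93 and 11.66 in the necrotic kidneys, 12.56 and 12.38 in the deficient corn oil kidneys and 12.58 and 12.65 in the control corn oil kidneys. Under fish oil it read 12.60 and 12.74 in the deficient kidneys and 12.65 and 12.63 in the control kidneys. The necrotic values lay lowest, the deficient corn oil values lay below all control and fish oil values by a smaller margin, and the 6 control and fish oil arrays overlapped between 12.58 and 12.74. Its fall in the necrotic relative to the control corn oil kidneys was -0.82 ± 0.13 (95% interval -1.12 to -0.52, adjusted p = 0.0029). The interval for Atp6v1b1, -2.42 to -1.77, does not overlap with it, though the difference between these genes was not tested.

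Slc4a1 encodes the anion exchanger AE1, which in a short form carries bicarbonate across the basolateral membrane of type A cells and in red cells is known as band 3. It read 10.07 and 9.57 in the necrotic kidneys, 10.04 and 9.81 in the deficient corn oil kidneys and 10.34 and 10.48 in the control corn oil kidneys. Under fish oil it read 10.82 and 11.03 in the deficient kidneys and 11.01 and 10.82 in the control kidneys. The necrotic and deficient corn oil values overlapped, the control corn oil values lay above them, and the 4 fish oil values lay above all corn oil values. The necrotic kidneys differed from the control corn oil kidneys by -0.59 ± 0.18 (adjusted p = 0.0522) and from the deficient corn oil kidneys by -0.10 ± 0.18 (95% interval -0.52 to 0.31, adjusted p = 0.824). Necrotic replicate 1 decided the first of these: the difference was -0.84 (adjusted p = 0.0187) without it and -0.34 (adjusted p = 0.228) without replicate 2.

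Since Slc4a1 is also a red cell gene, erythroid genes are set beside it. Of 12 erythroid genes 9 were measured. In the necrotic relative to the control corn oil kidneys 1 of the 9 rose and none fell, which says little about the list. It was Hemgn, a nuclear protein of erythroid cells (1.05 ± 0.16, adjusted p = 0.00226). Relative to the deficient corn oil kidneys 4 of the 9 rose in the necrotic kidneys and none fell. In that comparison 2860 of 29214 probe sets passed, of which 1484 were lower. In the deficient fish oil relative to the necrotic kidneys 6 of the 9 fell and none rose. There 5763 of 29214 probe sets passed, of which 2701 were higher. Between the deficient fish oil and deficient corn oil kidneys none of the 9 passed. Alas2, the heme synthesis enzyme of red cell precursors, read 11.58 and 11.56 in the necrotic kidneys, against 10.63 and 10.64 in the control corn oil kidneys (0.94 ± 0.32, adjusted p = 0.0722). The mean of the 9 genes was 8.05 and 7.94 in the necrotic kidneys, 7.27 and 7.24 in the deficient corn oil kidneys, 7.60 and 7.43 in the control corn oil kidneys, 7.04 and 7.14 in the deficient fish oil kidneys and 7.24 and 7.43 in the control fish oil kidneys. The erythroid mean was highest where Slc4a1 was among its lowest values, and its part in the Slc4a1 result was not tested.

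**Figure D2:**
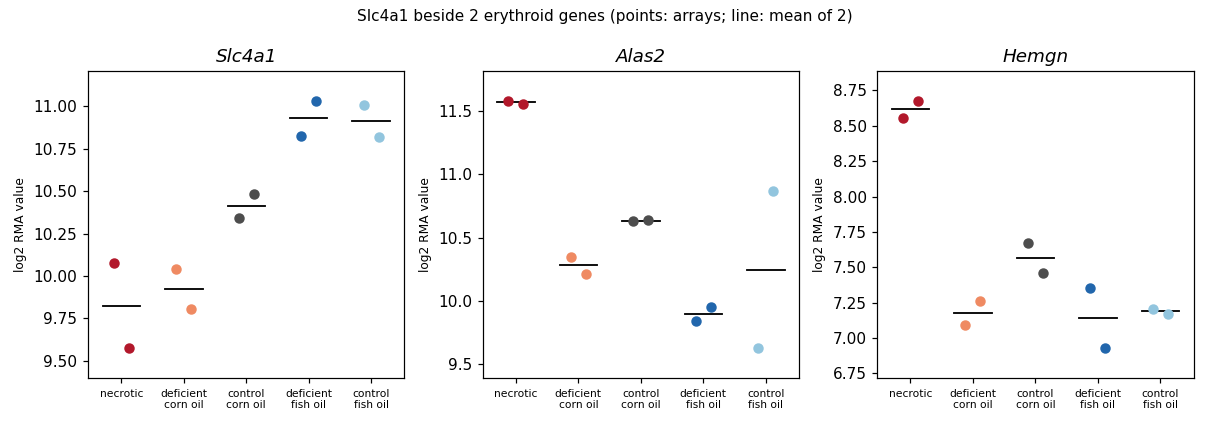
Log2 RMA values (y axes) of Slc4a1 and of the erythroid genes Alas2 and Hemgn on each array, with the 5 groups along the x axis; points are arrays and lines are means of the 2 arrays. Slc4a1 is lowest in the necrotic and deficient corn oil kidneys and highest under fish oil, while Alas2 and Hemgn are highest in the necrotic kidneys.

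Slc26a4 encodes pendrin, the apical exchanger through which type B cells secrete bicarbonate and take up chloride. It read 7.34 and 7.40 in the necrotic kidneys, 9.18 and 9.12 in the deficient corn oil kidneys and 9.25 and 9.27 in the control corn oil kidneys. Under fish oil it read 9.52 and 9.84 in the deficient kidneys and 9.04 and 9.87 in the control kidneys. The necrotic values lay far below the rest, the deficient and control corn oil values were close without overlapping, and the control fish oil pools were so unequal that they spanned all other groups but the necrotic one. Pendrin fell by 1.89 ± 0.24 in the necrotic relative to the control corn oil kidneys (3.71-fold, adjusted p = 0.000893) and by 1.78 ± 0.24 relative to the deficient corn oil kidneys (adjusted p = 0.00294). The deficient corn oil kidneys differed from control corn oil by -0.11 ± 0.24 (95% interval -0.65 to 0.42, adjusted p = 0.854).

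Oxgr1 encodes the receptor for 2-oxoglutarate, which in mice sits on type B and related cells and links luminal oxoglutarate to bicarbonate secretion. It read 8.01 and 8.02 in the necrotic kidneys, 9.74 and 10.38 in the deficient corn oil kidneys and 11.39 and 11.55 in the control corn oil kidneys. Under fish oil it read 11.22 and 11.64 in the deficient kidneys and 11.53 and 11.26 in the control kidneys. The control and fish oil arrays overlapped, the deficient corn oil arrays lay below all of them with replicate 1 the lower, and the necrotic arrays lay lowest. Among the 8 members it had the largest difference between necrotic and control corn oil kidneys, -3.46 ± 0.22 (95% interval -3.96 to -2.95, adjusted p = 5.17e-05). It was also the only member that fell in the deficient relative to the control corn oil kidneys, by 1.41 ± 0.22 (2.65-fold, adjusted p = 0.0263), where 0.236% of all probe sets were lower. That call was lost without control corn oil replicate 1 (-1.49, adjusted p = 0.145), without control corn oil replicate 2 (-1.33, adjusted p = 0.21) and when only the compared groups were fitted (adjusted p = 0.122).

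Rhcg and Rhbg encode the ammonia channels of the distal nephron, Rhcg on the apical and basolateral sides and Rhbg on the basolateral side, and both are also made by other connecting tubule and collecting duct cells. Rhcg read 10.12 and 10.14 in the necrotic kidneys, 11.97 and 11.88 in the deficient corn oil kidneys, 12.20 and 12.32 in the control corn oil kidneys, 12.50 and 12.55 in the deficient fish oil kidneys, and 12.40 and 12.50 in the control fish oil kidneys. The 3 corn oil groups followed each other without overlap, and the fish oil values overlapped with each other above them. Rhbg read 8.38 and 8.52 in the necrotic kidneys, 9.69 and 9.51 in the deficient corn oil kidneys, 10.16 and 10.11 in the control corn oil kidneys, 10.23 and 10.30 in the deficient fish oil kidneys, and 10.17 and 10.36 in the control fish oil kidneys. Its order of groups was the same, with the lowest fish oil array just above the highest control corn oil array. The falls in the necrotic relative to the control corn oil kidneys were 4.37-fold for Rhcg (95% interval of the log2 difference -2.37 to -1.88, adjusted p = 2.5e-05) and 3.23-fold for Rhbg (-1.97 to -1.41, adjusted p = 8.29e-05).

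The deficient corn oil kidneys, set against control corn oil, compare lack of choline with its supply in pools that are not called necrotic. These pools were not at control level for tubular injury genes. Of 9 such genes 6 rose and none fell, with a median of 1.43 and a range from 0.13 to 5.85. In this comparison 330 of 29214 probe sets passed in either direction. Besides Oxgr1 none of the members passed there, and 5 of the 8 had an unadjusted p under 0.05, as did 15.2% of all probe sets. All 8 differences lay below 0, with a median of -0.41 beside 0.01 over all probe sets, and for all 8 both arrays lay under both control arrays, which was true of 23.8% of all probe sets. Rhbg differed by -0.54 ± 0.12 (adjusted p = 0.0908), Slc4a1 by -0.49 ± 0.18 (adjusted p = 0.268) and Rhcg by -0.33 ± 0.11 (adjusted p = 0.211). The remaining values, those of Atp6v0a4, Slc26a4 and Foxi1, lay between -0.21 and -0.11. This comparison and the one before share the control corn oil arrays.

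The necrotic kidneys were then set against the deficient corn oil kidneys, which received the same diet. Of the 8 members 7 were lower in the necrotic kidneys, where 5.08% of all probe sets were, with a median of -1.25. The largest differences were those of Oxgr1, -2.05 ± 0.22 (adjusted p = 0.0012), and of Rhcg, -1.79 ± 0.11 (adjusted p = 0.000127). Atp6v1b1 differed by -1.36 ± 0.14 (adjusted p = 0.00105), Rhbg by -1.15 ± 0.12 (adjusted p = 0.00111), Foxi1 by -0.88 ± 0.12 (adjusted p = 0.00332) and Atp6v0a4 by -0.68 ± 0.13 (adjusted p = 0.0148). The call of Atp6v0a4 was lost without necrotic replicate 2 (-0.54, adjusted p = 0.0835) or without deficient corn oil replicate 1 (-0.59, adjusted p = 0.0963), and those of Atp6v0a4 (adjusted p = 0.114) and Foxi1 (adjusted p = 0.0596) when only these groups were fitted.

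Under fish oil the same lack of choline left no member past the threshold. In the deficient relative to the control fish oil kidneys limma called 0 of 29214 probe sets, or 0%, with 1036 at an unadjusted p under 0.05, and among the members Foxi1 alone had one (0.37 ± 0.12, 95% interval 0.09 to 0.64, adjusted p = 1). Rhbg averaged 10.26 in both groups, and the interval of its difference ran from -0.28 to 0.28. The widest intervals, those of Slc26a4 (-0.31 to 0.76) and Oxgr1 (-0.47 to 0.54), do not reach the falls that these genes had in the necrotic kidneys. Between the oils with choline given, control fish oil against control corn oil, no member passed either, where 0.185% of all probe sets did, and 1 of the 8 had an unadjusted p under 0.05, as did 12.4% of all probe sets. That gene was Slc4a1 (0.50 ± 0.18, 95% interval 0.08 to 0.91, adjusted p = 0.336), and the other 7 differences lay between -0.08 and 0.20.

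**Figure D3:**
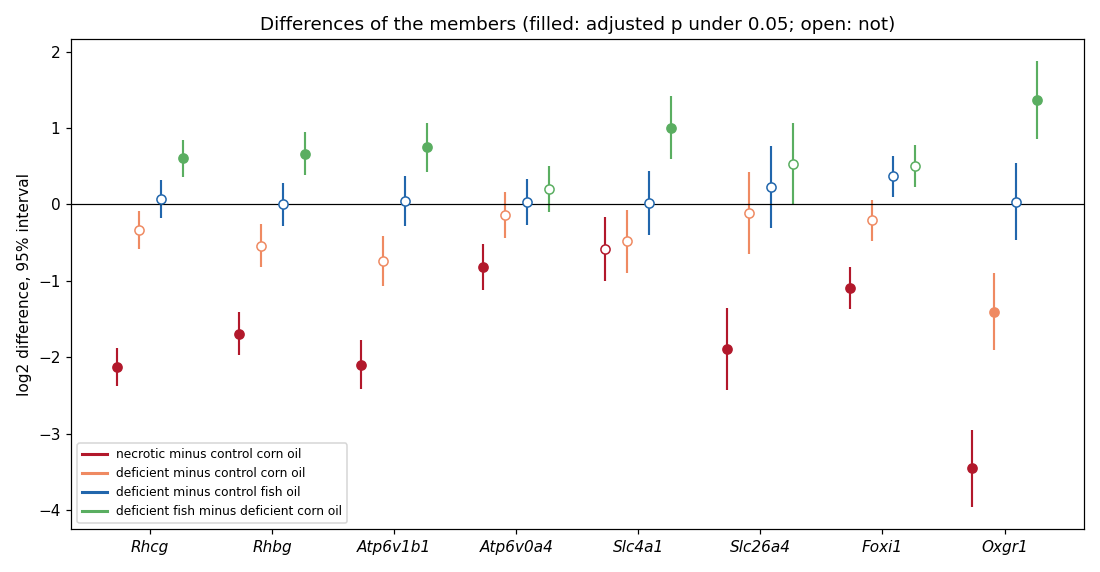
Log2 differences (y axis) with 95% intervals for the 8 genes (x axis) in 4 comparisons, the group named first minus the other; filled points passed at an adjusted p under 0.05 and open points did not. The necrotic differences run from -3.46 for Oxgr1 to -0.59 for Slc4a1, while those between deficient and control fish oil kidneys stay between 0.00 and 0.37.

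Within choline deficiency, the deficient fish oil kidneys were set against the deficient corn oil kidneys, whose labels lack the word necrotic. This comparison shares no array with the necrotic against control corn oil one, but errors were estimated over all groups, so their p-values are not independent. It shares the deficient corn oil arrays with the deficient against control corn oil and the necrotic against deficient corn oil comparisons. Low values on those arrays would give both a fall from control corn oil and a higher value under fish oil. Of the 8 members 5 were higher under fish oil, where 0.346% of all probe sets were, and the median difference was 0.63 beside 0.01 over all probe sets. Every member had both fish oil arrays above both corn oil arrays, as did 21.2% of all probe sets. Oxgr1 was higher by 1.37 ± 0.22 (2.58-fold, adjusted p = 0.0228), Slc4a1 by 1.00 ± 0.18 (2.00-fold, adjusted p = 0.0348), Atp6v1b1 by 0.74 ± 0.14 (adjusted p = 0.0419), Rhbg by 0.67 ± 0.12 (adjusted p = 0.0363) and Rhcg by 0.60 ± 0.11 (adjusted p = 0.0333). Foxi1 differed by 0.50 ± 0.12 (adjusted p = 0.0946), Slc26a4 by 0.53 ± 0.24 (adjusted p = 0.4) and Atp6v0a4 by 0.20 ± 0.13 (adjusted p = 0.638).

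These fish oil calls lay close to the threshold. Without deficient fish oil replicate 1 or 2, and when only these groups were fitted, 0 of 8 members passed; without deficient corn oil replicate 1 the number was 2 and without replicate 2 it was 1. After median centring and with the trended, robust prior 6 of 8 passed, Foxi1 being added (adjusted p = 0.0476 and 0.045). The differences themselves changed little, with medians over the 8 members between 0.59 and 0.70 when an array was left out, although that of Oxgr1 was 1.05 without deficient corn oil replicate 1 and 1.69 without replicate 2. With the replicate number as a block 2 members passed, Slc4a1 (adjusted p = 0.0484) and Oxgr1 (adjusted p = 0.0253).

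Set against the necrotic kidneys, the deficient fish oil kidneys had higher values of all 8 members, where 9.25% of all probe sets were higher. The differences ran from 0.88 ± 0.13 for Atp6v0a4 (adjusted p = 0.00197) to 3.42 ± 0.22 for Oxgr1 (10.7-fold, adjusted p = 4.98e-05), and that of Slc4a1 was 1.10 ± 0.18 (adjusted p = 0.00325). Whether the effect of choline lack differed between the oils was tested as an interaction, the deficient minus control difference under fish oil minus that under corn oil. With the necrotic pools as the deficient corn oil group it passed for 7 of 8 members, all above 0, where 4.9% of all probe sets were. No fish oil pool was labelled necrotic, so this form cannot tell necrosis from an oil effect on choline lack. With the pools not called necrotic, named the non-necrotic interaction below, the interaction passed for none of the 8, where 0.103% of all probe sets did. The name follows the labels only, and tubular injury genes were higher in these pools than in control corn oil, as given above. Of the 8, 5 had an unadjusted p under 0.05, as did 9.9% of all probe sets. All 8 of those values lay above 0, the largest being that of Oxgr1 (1.44 ± 0.31, 95% interval 0.73 to 2.16, adjusted p = 0.195).

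The proton pump allowed its cell-type forms to be compared with its common parts. Of the kidney and epithelial forms 5 of 5 fell in the necrotic relative to the control corn oil kidneys, with a median of -1.42. Beside both members these were Atp6v1c2 (-1.44 ± 0.16, adjusted p = 0.000511), Atp6v0d2 (-1.42 ± 0.15, adjusted p = 0.000358) and Atp6v1g3 (-1.03 ± 0.15, adjusted p = 0.00202), which encode the C2, d2 and G3 subunits. Of 16 measured common subunits 6 fell, 2 rose and 8 did not pass, with a median of -0.33. The 6 falls lay between -0.86 for Atp6v1a and -0.39 for Atp6v1c1. Of these 6 calls only that of Atp6v0d1 was kept whichever 1 array was left out. The B2 subunit gene Atp6v1b2, the broadly expressed counterpart of Atp6v1b1, read 12.73 and 12.52 in the necrotic kidneys, against 12.40 and 12.40 in the control corn oil kidneys (0.22 ± 0.11, adjusted p = 0.216).

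The subunits that rose were forms of the same a subunit to which Atp6v0a4 belongs. Atp6v0a1, the a1 form, read 11.03 and 10.68 in the necrotic kidneys, against 10.15 and 10.07 in the control corn oil kidneys, and was higher by 0.74 ± 0.14 (adjusted p = 0.00574). Tcirg1, the a3 form of osteoclasts and other lysosome-rich cells, read 9.81 and 9.55 in the necrotic kidneys, against 8.69 and 8.89 in the control corn oil kidneys, and was higher by 0.88 ± 0.20 (adjusted p = 0.0165). The call of Atp6v0a1 was lost without control corn oil replicate 2 (adjusted p = 0.0507), and that of Tcirg1 without necrotic replicate 1 or either control corn oil array (adjusted p = 0.0557 to 0.105). No sign turned under other scalings: after median centring Atp6v0a1 differed by 0.63, Tcirg1 by 0.78 and Atp6v0a4 by -0.93, and after cyclic loess by 0.78, 0.88 and -0.76. In the same kidneys 7 of 8 macrophage genes rose, and their mean was 9.94 and 9.98 in the necrotic kidneys, against 7.98 and 8.11 in the control corn oil kidneys; their part in the rise of Tcirg1 and Atp6v0a1 was not tested. In the deficient fish oil relative to the deficient corn oil kidneys 3 of the 5 kidney forms were higher, Atp6v0d2 by 0.95 ± 0.15 (adjusted p = 0.0172), Atp6v1c2 by 0.80 ± 0.16 (adjusted p = 0.0479) and Atp6v1b1, and none of the 16 common subunits passed. Without deficient corn oil replicate 2 or either deficient fish oil array neither Atp6v0d2 (adjusted p = 0.062 to 0.152) nor Atp6v1c2 (adjusted p = 0.117 to 0.299) passed, and Atp6v1c2 was also lost without deficient corn oil replicate 1 (adjusted p = 0.0563).

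**Figure D4:**
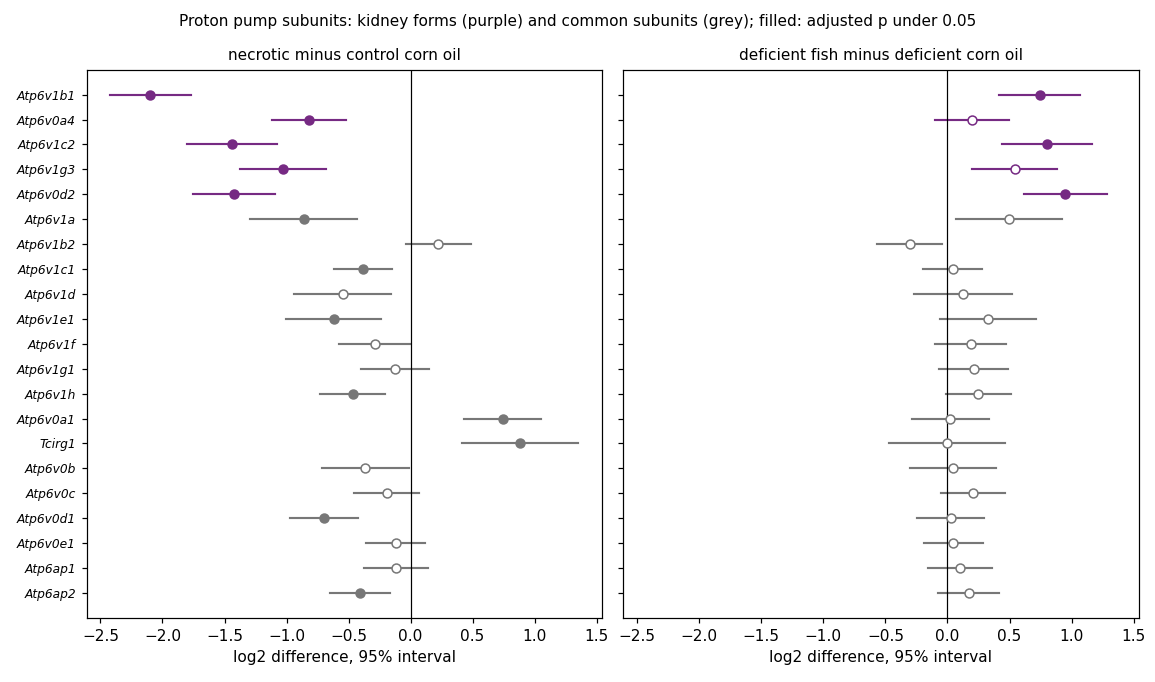
Log2 differences with 95% intervals (x axis) for 21 proton pump genes (y axis), necrotic minus control corn oil on the left and deficient fish oil minus deficient corn oil on the right; purple marks the 5 kidney forms, grey the 16 common subunits, and filled points passed. On the left the purple points lie between -2.10 and -0.82, while Atp6v0a1 and Tcirg1 lie above 0.

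Other genes of intercalated cells followed the members in part. Of 17 measured, 11 fell in the necrotic relative to the control corn oil kidneys and none rose, with a median of -0.71. Calls of smaller falls, among them Car2 (-0.70) and Car12 (-0.79), depended on single arrays. The largest fall was that of Car15, a membrane-bound carbonic anhydrase (-2.60 ± 0.16, adjusted p = 4.23e-05), followed by Slc26a7, a basolateral anion exchanger of type A cells (-2.04 ± 0.19, adjusted p = 0.000231), Insrr, the alkali-sensing insulin receptor-related receptor (-1.99 ± 0.17, adjusted p = 0.000146) and Hepacam2, a membrane marker of these cells (-1.72 ± 0.12, adjusted p = 8.29e-05). Kit, a receptor that marks the cell type but also mast and progenitor cells, read 8.25 and 8.45 in the necrotic kidneys, against 8.01 and 8.09 in the control corn oil kidneys, and did not pass. In the deficient fish oil relative to the deficient corn oil kidneys 3 of the 17 were higher: Slc26a7 by 1.24 ± 0.19 (adjusted p = 0.0172), Hepacam2 by 0.74 ± 0.12 (adjusted p = 0.0257) and Tfcp2l1, a transcription factor of the collecting duct, by 0.73 ± 0.11 (adjusted p = 0.0187). None of Slc26a7, Hepacam2 and Tfcp2l1 passed without deficient corn oil replicate 2 or either deficient fish oil array (adjusted p = 0.0726 to 0.192), nor Tfcp2l1 without deficient corn oil replicate 1 (adjusted p = 0.0523).

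Tfcp2l1 had an order of groups like that of Slc4a1. It read 11.11 and 11.20 in the necrotic kidneys, 11.12 and 11.18 in the deficient corn oil kidneys, 11.62 and 11.74 in the control corn oil kidneys, 11.80 and 11.97 in the deficient fish oil kidneys and 11.78 and 11.84 in the control fish oil kidneys. The necrotic and deficient corn oil values overlapped, and both groups lay below the other 3. Car15 read 7.77 and 8.20 in the necrotic kidneys and 10.88 and 10.85 in the deficient corn oil kidneys, against 10.48 and 10.70 in the control corn oil kidneys. Its deficient corn oil values thus lay above those of control corn oil, where all 8 members lay below, and its 4 fish oil values, 10.03 to 10.29, lay below both.

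Ammonium reaches the collecting duct from the proximal tubule, and genes of that source were measured too. Of 7 measured genes of ammonia and bicarbonate production, 4 fell in the necrotic relative to the control corn oil kidneys, with a median of -0.52. They were Slc9a3, the apical sodium-proton exchanger that also carries ammonium (-2.63 ± 0.12, adjusted p = 1.74e-05), Pck1, which draws on glutamine carbon for glucose (-1.80 ± 0.40, adjusted p = 0.0133), Slc38a3, the basolateral glutamine transporter (-1.20 ± 0.21, adjusted p = 0.0049), and Glud1, glutamate dehydrogenase (-0.52). The necrotic Pck1 arrays were unequal, 12.19 and 10.64, against 13.17 and 13.27 in the control corn oil kidneys, and without necrotic replicate 2 the difference was -1.03. The Pck1 call was lost without control corn oil replicate 1 (adjusted p = 0.0606) or 2 (adjusted p = 0.0773), and that of Glud1 without either of them or without necrotic replicate 2 (adjusted p = 0.128 to 0.155). Slc9a3 was also lower in the deficient corn oil than in the control corn oil kidneys (-0.83 ± 0.12, adjusted p = 0.0191), with values of 10.67 and 10.65 against 11.45 and 11.54, a call lost without deficient corn oil replicate 2 or either control corn oil array (adjusted p = 0.0992 to 0.186). In the deficient fish oil relative to the deficient corn oil kidneys none of the 7 passed, the largest difference being that of Slc38a3 (0.99 ± 0.21, adjusted p = 0.0638).

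The members were set beside markers of the cells around them. Of 13 principal cell genes, the water and sodium cells of the same duct, 9 fell in the necrotic relative to the control corn oil kidneys (median -0.99). The calls of Elf5 (-0.99) and Fxyd4 (-0.87) among them depended on single arrays. Aqp2, the vasopressin-regulated water channel, differed by -1.28 (adjusted p = 0.0152). Its necrotic arrays read 12.15 and 11.18, against a mean of 12.95 in the control corn oil kidneys. The Aqp2 difference was -0.79 without necrotic replicate 2 (adjusted p = 0.0494), and its call was lost without control corn oil replicate 1 (adjusted p = 0.0634) or 2 (adjusted p = 0.0888). Of 9 proximal tubule genes 8 fell (median -2.42), and of 7 thick limb and distal convoluted tubule genes 5 fell and 1, Kng1, rose (median -3.27). Of 5 podocyte genes 2 fell (median -0.40) and of 6 endothelial genes 3 fell (median -0.47). The podocyte calls, those of Nphs1 and Podxl, depended on single arrays. Macrophage and neutrophil genes rose, 7 of 8 and 6 of 6 (5 of 6 after median centring), and so did 8 of 9 tubular injury genes (medians 2.05, 1.92 and 2.48). Genes of the other tubule segments thus fell in the same kidneys, and the part that immune or injured cells had in the members' values was not tested.

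In the deficient fish oil relative to the deficient corn oil kidneys the lists differed in counts. Of the principal cell genes 0 of 13 passed (median 0.12), of the proximal tubule genes 0 of 9 (median 0.18), of the thick limb and distal convoluted tubule genes 1 of 7 (Kng1, lower; median 0.24), of the podocyte genes 0 of 5 and of the endothelial genes 0 of 6. Of the injury and immune genes, 6 of 8 macrophage, 2 of 6 neutrophil and 5 of 9 tubular injury genes were lower. Over all probe sets 507 of 29214 passed in this comparison, of which 101 were higher. The calls of Cd68, Csf1r, C1qa, C1qb, Adgre1, Csf3r, S100a9 and Havcr1 depended on single arrays, while that of Cd14 did not. The members' median was 0.63, that of the other intercalated cell genes 0.36 and that of the 7 genes of ammonia and bicarbonate production 0.46. All 7 of the last lay above 0, the lowest at 0.09. No test of one list against another was made.

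**Figure D5:**
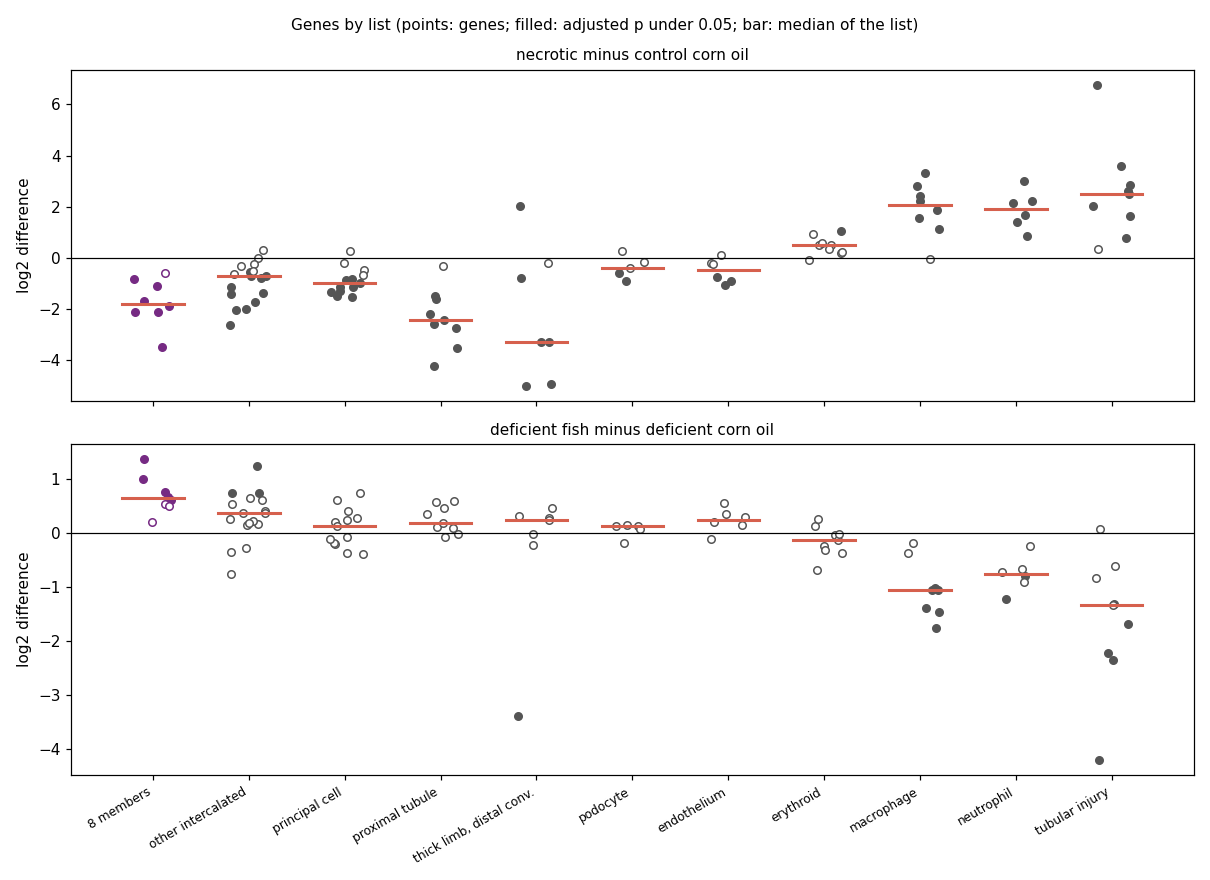
Log2 differences (y axes) of single genes by list (x axis), necrotic minus control corn oil above and deficient fish oil minus deficient corn oil below; filled points passed, open points did not, and red bars are list medians. The members' median is -1.79 above and 0.63 below. That of the other intercalated cell genes is -0.71 above and 0.36 below, and the proximal tubule median is -2.42 above and 0.18 below.

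Over the 10 arrays the members other than Slc4a1 varied closely together, which is a description of 5 group levels more than of 10 independent points. Pearson's r between them ran from 0.91 (Slc26a4 and Oxgr1) to 0.99 (Atp6v1b1 and Oxgr1), and between Slc4a1 and the others from 0.69 (Slc26a4) to 0.80 (Atp6v1b1). The 3 genes most like each member were named by their correlation with it. For Rhcg they were Slc27a2, Dnase1 and Gfra3 (r = 0.99 each), for Rhbg Fahd1, Amacr and Hadh, for Atp6v1b1 Dmtn, Tmem52b and Poldip2, and for Atp6v0a4 Abca7 and the proximal organic anion transporters Slc22a8 and Slc22a6 (r = 0.99 each). For Oxgr1 they were Casr, the calcium-sensing receptor, Nherf2 and Dmtn (r = 0.99 each), and for Foxi1 Eef2kmt, Sim1 and Tmem72 (r = 0.98 each). For Slc26a4 they were Ptgr3 (r = 0.99), Adra2b (r = 0.98) and Vps4a (r = 0.97). For Slc4a1 they were the glutathione transferases Gstm2 and Gstm7 (r = 0.98 each) and Chrna2 (r = 0.98). Of 14498 other genes, 477 had r above 0.95 with Rhcg, 478 with Rhbg, 411 with Atp6v1b1 and 404 with Atp6v0a4. The number was 139 for Oxgr1, 97 for Slc26a4, 44 for Foxi1 and 17 for Slc4a1.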

How the data were processed

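Kidney RNA of 10 pools of 3 rats was measured on expression arrays, 1 array per pool. The deposited values are log2 intensities made by the authors with RMA, per the submitters' processing notes; for software version and genome build, none is given in the sources used here. Values ran from 1.62 to 14.72 and were used as deposited. Of 29214 probe sets 15310 had 1 gene symbol, 323 had several and 13581 were not listed; 15279 were matched to the current gene table (GRCr8, names only), which changed 0 symbols. This named 14506 genes; where a gene had several probe sets, that of highest mean was kept.

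All 5 groups were fitted in limma 3.58.1 (R 4.3.3; lmFit, eBayes; 5 residual and 3.59 prior degrees of freedom) without a block, with 9 contrasts and Benjamini-Hochberg adjustment over all probe sets of a contrast at a threshold of 0.05. The labels do not say whether pools of a group came from separate feedings, so p-values measure the spread between pools. Same-numbered arrays did not deviate together: correlations of their deviations were -0.17 to 0.14 over 10 pairs of groups, 3 of them above 0.1. The members and lists were chosen with earlier results of these data known. Named genes are the 8 members, the 3 genes most correlated with each, and up to 6 genes per list past the threshold with the largest differences, beside which other list genes could be given by value; Car15, Tfcp2l1 and Kit were singled out after their values were seen. Of the list genes 12 were not matched to a probe set with 1 symbol and were not used here. The code was tested on simulated data. Alternatives were median centring, cyclic loess, leaving out the dimmest 25% of probe sets, a trended and robust prior, only the groups compared, a replicate block and leaving out each array; the last was added for the named list genes after their values were seen. Figures were drawn with matplotlib 3.10.9 under Python 3.11.15.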

Additional observations from a re-analysis of the deposited data

Results flagged for a closer look

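With the necrotic pools standing for the deficient corn oil diet, limma's interaction test passed for 7 of the 8 members. It asks whether the change with choline lack differed between the oils. All 7 values lay above 0, where 4.9% of all probe sets passed above 0. The value is the deficient minus control difference under fish oil minus the necrotic minus control difference under corn oil. It was 3.49 for Oxgr1 (adjusted p = 0.000895), 2.20 for Rhcg (adjusted p = 0.000391), 2.14 for Atp6v1b1 (adjusted p = 0.000967) and 2.12 for Slc26a4 (adjusted p = 0.00721). It was 1.69 for Rhbg (adjusted p = 0.00133), 1.46 for Foxi1 (adjusted p = 0.00209) and 0.85 for Atp6v0a4 (adjusted p = 0.0254). The last was lost without necrotic replicate 2 or without any 1 of the 6 control corn oil and fish oil arrays (0.72 to 0.92, highest adjusted p = 0.107). For Slc4a1 the value was 0.60 with adjusted p = 0.199. With the pools not called necrotic the test passed for 0 of 8 members, where 0.103% of all probe sets passed. No fish oil pool was labelled necrotic, so the values above cannot tell necrosis from an oil effect on choline lack.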

How the results depend on the processing

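The 7 falls in the necrotic relative to the control corn oil kidneys and the 8 higher values in the deficient fish oil relative to the necrotic kidneys passed under all 10 alternatives run for each; where an array was left out, the lone array was assumed to vary like the other groups. The deficient fish oil calls over deficient corn oil did not: 3, those of Rhcg, Rhbg and Atp6v1b1, were also lost with the replicate block (adjusted p = 0.0529, 0.0597 and 0.0696), which left 11 probe sets for the non-necrotic interaction, within 1.5 times of the count of all other comparisons, and changed no other member's call. Atp6v1b1 passed between deficient and control corn oil under 3 alternatives, Rhbg under 1 (trended, robust prior, adjusted p = 0.0486), Slc4a1 between necrotic and control corn oil under 4, and Foxi1 between deficient fish and deficient corn oil under 2 (median centring and the trended, robust prior).

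Counts over all probe sets moved more. With only the groups compared they were 82 (deficient against control corn oil), 654 (necrotic against deficient corn oil), 5 (control fish against control corn oil), 25 (deficient fish against deficient corn oil) and 14 (non-necrotic interaction), fewer arrays setting the spread. The trended, robust prior gave 540, 124 and 67 for deficient against control corn oil, the oils with choline and the non-necrotic interaction, and leaving out the dimmest 25% gave 115 and 61 for the last 2; the cause was not tested. Leaving out 1 array gave 3003 to 4638 calls for necrotic against control corn oil, 32 to 714 for deficient against control corn oil, 1040 to 3125 for necrotic against deficient corn oil, 0 to 2 for deficient against control fish oil and 3 to 6 for the oils with choline. It gave 87 to 691 for deficient fish against deficient corn oil, 3324 to 4254 for deficient fish oil against necrotic, 0 to 90 for the non-necrotic and 955 to 1847 for the necrotic interaction. Median centring changed the split to 3483 higher and 2282 lower for deficient fish oil against necrotic (as deposited 2701 and 3062) and to 1670 and 818 for the necrotic interaction (as deposited 1431 and 1117).

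No member past the threshold changed sign. Differences that never passed changed sign when an array was left out. For deficient against control fish oil they ran from -0.0946 to 0.0938 for Rhbg (0.0048 after median centring), -0.049 to 0.139 for Atp6v1b1, -0.0419 to 0.104 for Atp6v0a4, -0.0889 to 0.123 for Slc4a1, -0.19 to 0.64 for Slc26a4 and -0.18 to 0.25 for Oxgr1. For control fish against control corn oil they ran from -0.146 to 0.0606 for Atp6v1b1, -0.008 to 0.0614 for Atp6v0a4, -0.22 to 0.61 for Slc26a4 and -0.211 to 0.0638 for Oxgr1. Slc4a1 ran from -0.35 to 0.15 between necrotic and deficient corn oil kidneys, and Slc26a4 from -0.0746 to 0.751 in the non-necrotic interaction. Each member had 1 probe set, so no other could be tried.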
